A study of Mus musculus with 18 samples.

Results

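The genes described here are the 43 kinases, phosphatases and partner subunits that make, convert or read out phosphoinositides in splenic B cells, out of 51912 genes in the table. They were listed by name and function, and no measured value entered the rule, but earlier results of these data were known when the list was made. The list holds the class I phosphoinositide 3-kinases (PI3K) with their regulators, the class II and III PI3K, the kinases of the other head-group positions, the phosphatases that reverse them, and AKT with its activating kinase PDK1. All 43 symbols matched 1 gene ID each in the GRCm38 annotation. RNA was sequenced from 18 libraries in 6 groups of 3 mice: transitional B cells (TRANS), follicular B cells (FO) and follicular B cells treated with CD40L (CD40L), each from WT C57BL/6 mice and from C57BL/6 mice that lacked Sh3gl1, the gene of the endocytic protein endophilin A2, in all cells (Sh3gl1-/-, KO in the group names). The mice were littermates, no age is given in the labels, and no agent other than CD40L was used. The labels do not say whether libraries of different cell states came from the same mice. A figure legend of the study gives 3 mice of each genotype for the RNA data, so the 18 libraries may not be from 18 mice. The first 2 cell types were sorted from spleen by flow cytometry and left untreated. The labels give 14 h of CD40L, the ligand by which helper T cells stimulate B cells through CD40, while the study's methods describe an overnight culture. The study's figure legends give a longer time for the RNA data, so the sources differ on it. No library of follicular cells cultured without CD40L was analysed here, so the effects of CD40L and of culture cannot be told apart.

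Phosphoinositides are membrane lipids whose inositol head can carry phosphates at several positions, and each pattern recruits its own set of proteins. In B cells, antigen receptor and co-stimulatory signals bring class I PI3K to the membrane, where it turns PIP2 into PIP3. PIP3 recruits AKT and PDK1, and active AKT restrains the FOXO transcription factors. The 5-phosphatase SHIP-1 and the 4-phosphatases remove the signal again, while the class III kinase, PIKfyve and the myotubularins set the lipid identity of endosomes. Endophilin A2 acts in endocytosis, where PIP2 is first made and then stripped from the budding vesicle, and the comparison of genotypes asks whether B cells without it carry another set of these enzymes.

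Library totals ran from 12404665 to 18366011 expected counts (median 14804232), so that 3 counts, taken here as the floor of detection, came to 0.163 to 0.242 CPM, the counts scaled to a common library size. CPM (with TMM factors over the 18 libraries) is used below to compare libraries. TPM, which is also scaled to transcript length, is used to compare genes. Sh3gl1 had 377 to 929 counts in the WT libraries and 1 to 22 in the Sh3gl1-/- libraries. The labelled cell type was borne out by its markers: the group medians of Cd79a, a chain of the antigen receptor, were 2245 to 4757 TPM, those of Ms4a1 (CD20) 825.6 to 2025 TPM and those of the B-lineage factor Pax5 119.4 to 174 TPM, and Cd93, by which transitional cells were sorted, had a median of 12.1 TPM in TRANS_WT and 2.23 TPM in FO_WT. Markers of other cells moved with the groups. The summed TPM of 10 neutrophil genes was 108 to 187 in TRANS_WT against 242 to 1125 in TRANS_KO, 147 to 349 in FO_WT against 359 to 1587 in FO_KO, and 16.7 to 78.02 in CD40L_WT against 97.1 to 347 in CD40L_KO, and the highest value of each Sh3gl1-/- group was in its library numbered 1. The 5 plasma cell genes, led by Jchain, summed to 418 to 643 TPM in TRANS_WT and 1008 to 3924 TPM in TRANS_KO, and 4 erythroid genes to 2814 to 4867 TPM and 5367 to 10825 TPM.

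The members differed widely in level. Inpp5d, which encodes SHIP-1, had the highest level with a median of 110 TPM over the 18 libraries (range 89.8 to 131), and its range overlapped that of the next member, the 5-phosphatase Inpp5k (median 58.1 TPM, range 27.4 to 90.9), only at the edge. Pik3ap1, the adaptor BCAP that links the antigen receptor to PI3K, followed with 45.1 TPM, and the leukocyte-enriched catalytic subunit Pik3cd (p110-delta) with 41.3 TPM. The ranges of these last 3 members overlapped across libraries, so their order is not fixed. Pik3c2a (37.5 TPM), Pi4ka (37.3 TPM), Inpp5f (34.0 TPM) and the regulatory subunit Pik3r1 (26.3 TPM) completed the upper part of the list. AKT was carried by Akt1 (12.96 TPM) and Akt2 (12.89 TPM) at levels that cannot be told apart by their ranges, 10.3 to 16.1 and 8.29 to 15.4 TPM.

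Of the 4 class I catalytic genes, 3 were expressed. Pik3cd made up 49.4% ± 1.1 (SD, n = 3) of the summed catalytic TPM in FO_WT, Pik3ca (p110-alpha) 25.6% ± 2.0 and the leukocyte subunit Pik3cg (p110-gamma) 25.0% ± 0.9. Pik3cb (p110-beta) had 0 to 13 counts in any library and a median of 0.00 TPM, and it passed the filter on low counts in none of the fits. Among the regulatory subunits Pik3r1 gave 72.0% ± 3.2 of the family's TPM in FO_WT and Pik3r2 19.1% ± 2.8. The p110-gamma partners Pik3r5 and Pik3r6 had medians of 2.90 and 0.64 TPM. Inppl1 (SHIP-2), the relative of SHIP-1, had a median of 0.41 TPM and 3 to 23 counts in a library. Of the 41 members with a mean above the floor in every group, 15 differed by less than 1.5-fold between their highest and lowest group mean of CPM and 15 by at least 2-fold. The lowest mean lay in a CD40L group for 26 of these 41 and the highest in a CD40L group for 8.

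**Figure D1:**
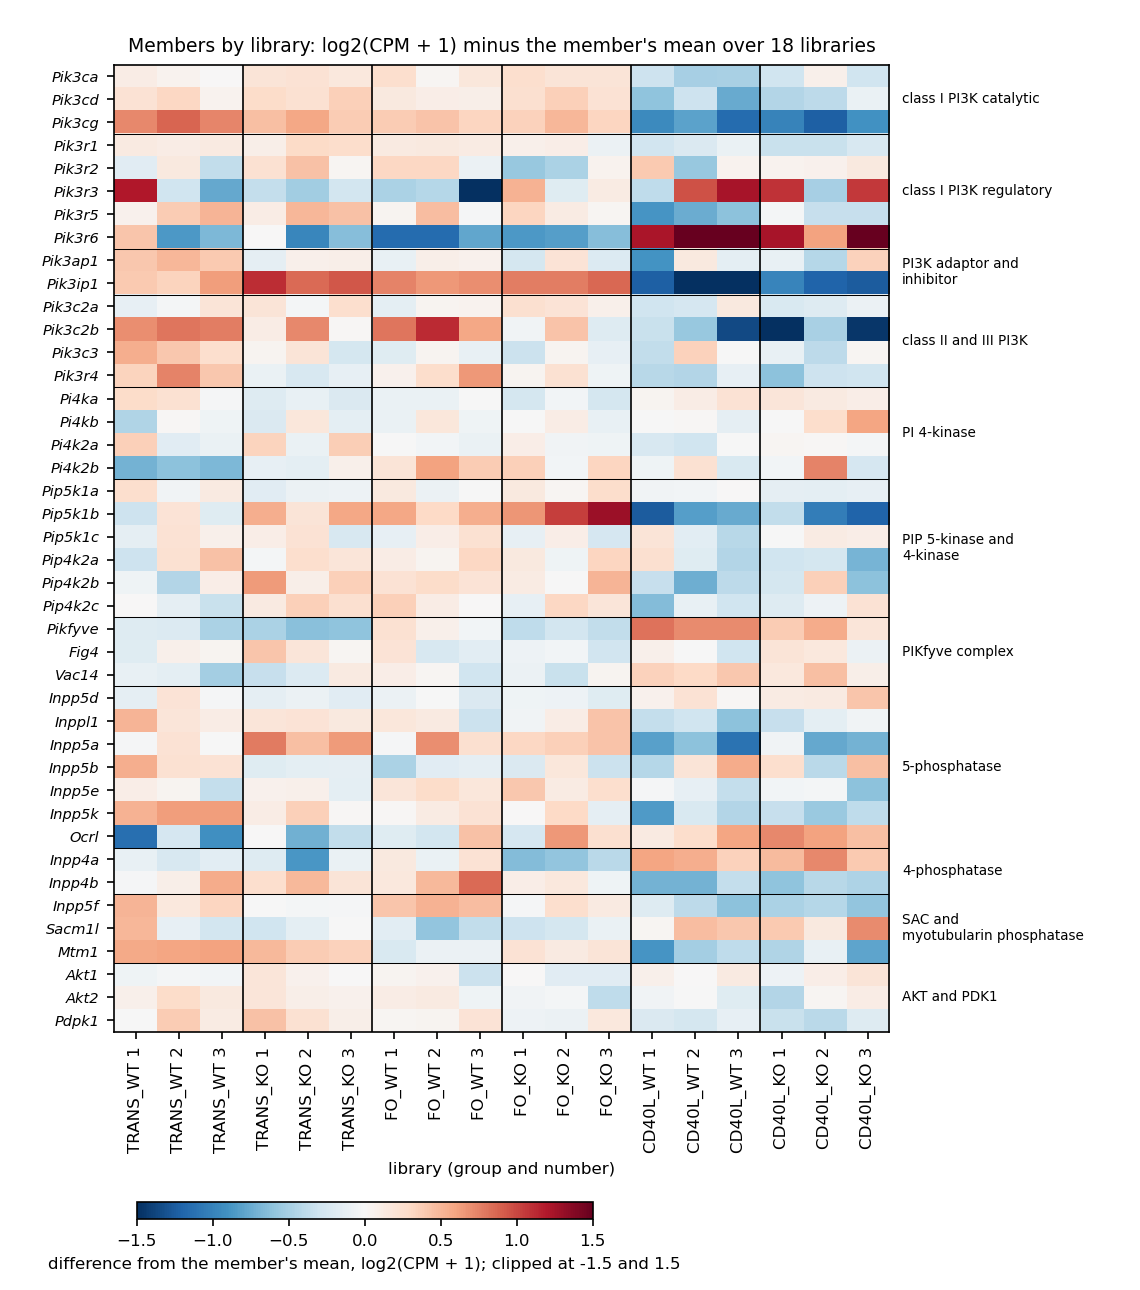
Each row is a member (42 of 43, without Pik3cb) and each column a library, grouped by cell state and genotype; colour gives log2(CPM + 1) minus the member's mean over the 18 libraries, clipped at -1.5 and 1.5. The blue cells of Pik3cg, Pik3ip1, Pik3c2b and Pip5k1b and the red cells of Pikfyve and Pik3r6 in the 6 CD40L columns show members that fell and rose after culture with CD40L.

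The comparison of CD40L culture with follicular cells ex vivo gave the most calls among the members. Of 42 members tested in WT, 22 passed an adjusted p under 0.05, 5 of them higher and 17 lower after CD40L, where 49.3% of all genes tested were called, 23.6% higher and 25.7% lower. In Sh3gl1-/- cells 24 of 42 passed, 6 higher and 18 lower, against 42.4% of all genes. The shares of members called, 52.4% and 57.1%, were thus near the shares of all genes. The median log2 fold change of the members was -0.29 in WT and -0.24 in Sh3gl1-/-, beside -0.08 and -0.03 over all genes. Groups did not overlap for 26 members in WT and 28 in Sh3gl1-/-, where 56.5% and 53.3% of all genes did not. On the TPM scale, on which the median gene was 0.25 lower in WT and 0.06 lower in Sh3gl1-/- (log2), every member called kept its direction. The libraries are bulk RNA, so fewer cells of a type and less RNA per cell cannot be told apart.

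WT and Sh3gl1-/- groups have no libraries in common, and 18 of the 42 members tested passed the threshold in both, all in the same direction: Pikfyve, Sacm1l, Inpp4a and Pik3r6 rose, and Pik3ca, Pik3cd, Pik3cg, Pik3r1, Pik3ip1, Pik3c2b, Pik3r4, Pip5k1b, Inpp5a, Inpp5f, Inpp5k, Inpp4b, Mtm1 and Pdpk1 fell. By the same rule, 2467 of the 14432 genes tested rose in both genotypes and 2673 fell, so such agreement was common among all genes. Of the 18, 9 were called in both genotypes whichever single library was omitted, namely Pik3cd, Pik3cg, Pik3ip1, Pik3r6, Pik3c2b, Pip5k1b, Pikfyve, Inpp5f and Sacm1l. The same count was not made over all genes. Without the Sh3gl1-/- libraries numbered 1, 10 of the 24 members called in Sh3gl1-/- remained, Pik3cd, Pik3cg, Pik3ip1, Pik3r6, Pip5k1b, Pikfyve, Inpp4a, Inpp5a, Inpp5f and Sacm1l.

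All 3 expressed class I catalytic subunits fell. Pik3cg had 94.5, 97.8 and 90.9 CPM in the FO_WT libraries and 36.9, 41.2 and 31.9 CPM in the CD40L_WT libraries. In Sh3gl1-/- cells its values were 92.3, 103 and 90.5 CPM in FO_KO and 35.7, 30.4 and 38.3 CPM in CD40L_KO. The 6 CD40L values lay far under the 6 ex vivo values, with a log2 fold change of -1.40 ± 0.12 (SE) in WT (2.63-fold lower; edgeR quasi-likelihood test, adjusted p = 6.19e-07) and -1.47 ± 0.12 in Sh3gl1-/- (2.77-fold lower, adjusted p = 4.92e-07). Pik3cd went from 102, 98.6 and 98.1 CPM to 60.0, 73.8 and 54.3 CPM in WT, and from 109, 118 and 107 CPM to 67.8, 69.6 and 86.0 CPM in Sh3gl1-/-. It fell 1.62-fold in WT (edgeR adjusted p = 0.000473) and 1.52-fold in Sh3gl1-/- (adjusted p = 0.00183). Pik3ca fell 1.54-fold in WT (edgeR adjusted p = 0.000831) and 1.33-fold in Sh3gl1-/- (adjusted p = 0.0161), where CD40L_KO replicate 2, at 73.4 CPM, was the library nearest to the ex vivo values of 79.6 to 83.1 CPM. The share of Pik3cg in the family went from 25.0% ± 0.9 to 17.6% ± 1.3 of the catalytic TPM in WT and from 22.6% ± 1.4 to 13.9% ± 1.3 in Sh3gl1-/-, while Pik3cd held 53.4% ± 4.9 and 52.6% ± 0.7 after CD40L. Summed over the family, the catalytic TPM was 86.1 ± 5.1 in FO_WT and 40.04 ± 3.6 in CD40L_WT, and 91.9 ± 4.2 in FO_KO and 51.0 ± 4.7 in CD40L_KO. These sums are not corrected for the shift of the median gene on the TPM scale given above. Over the same step the 8 T cell markers went from a range of 159.6 to 199 TPM in FO_WT to one of 46.0 to 69.2 TPM in CD40L_WT. The 8 monocyte and macrophage markers went from 98.3 to 127 TPM to 19.4 to 31.6 TPM, although the median of Adgre1 rose from 3.3 to 22.96 TPM. The 6 B cell markers went from 8853 to 9327 TPM to 5258 to 5799 TPM. These sums were also lower in CD40L_KO than in FO_KO. The 3 follicular markers went from 1536 to 1836 TPM to 1771 to 2659 TPM in WT. Pik3cd and Pik3cg are also expressed in T and myeloid cells, and the part of those cells in the falls was not tested.

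**Figure D2:**
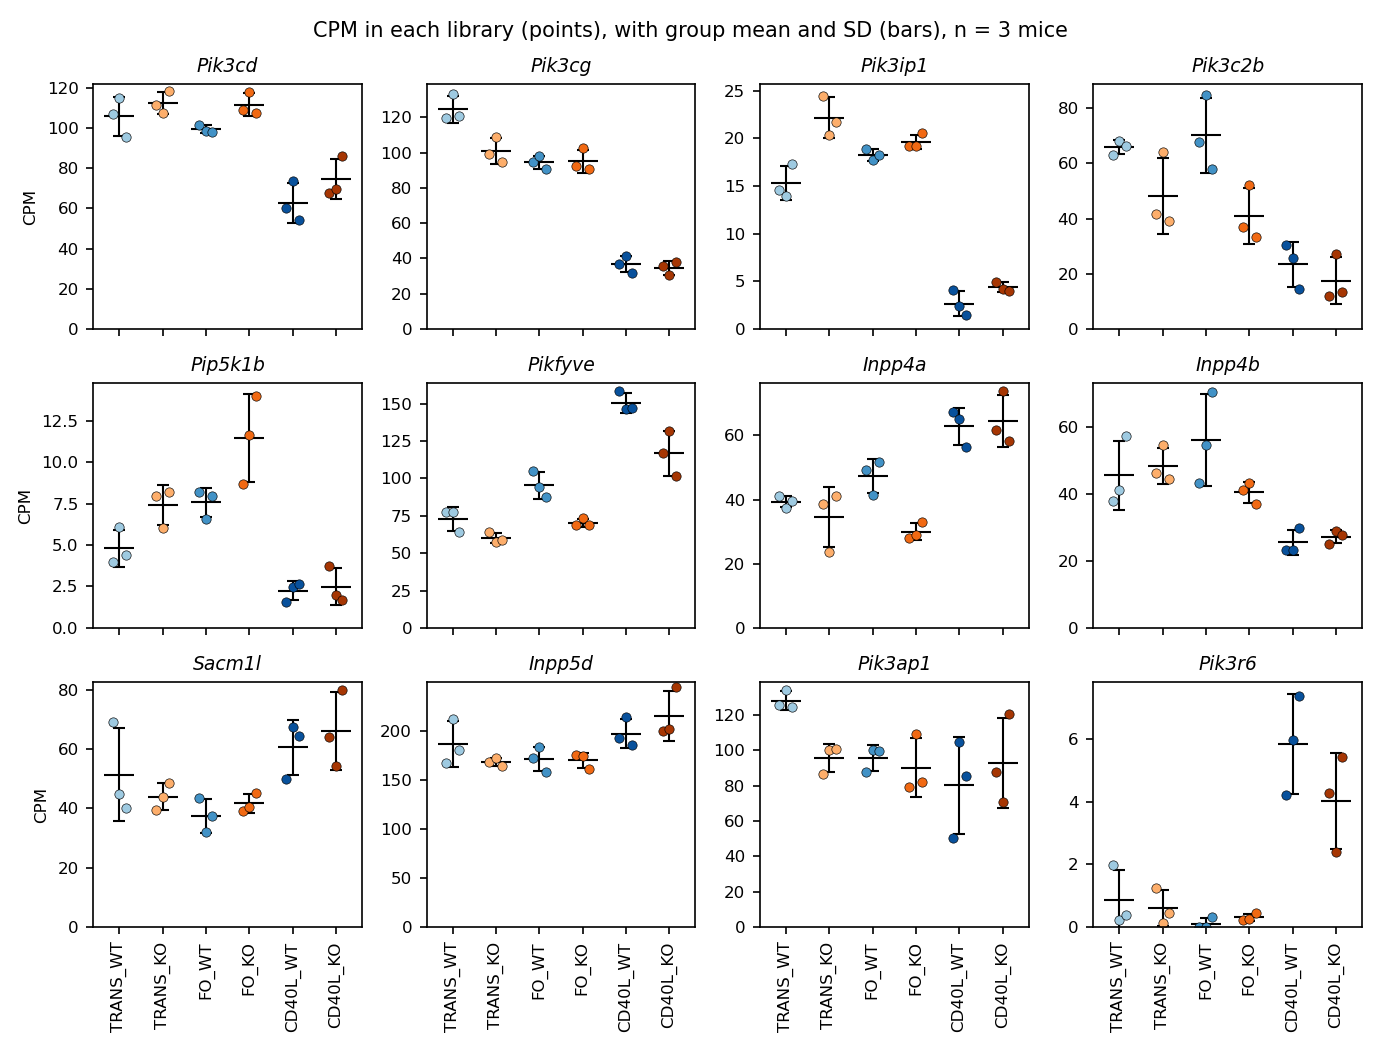
CPM of 12 members in every library (points), with the group mean and SD (bars) for the 6 groups of 3 mice; each y axis starts at 0. Pik3cg, Pik3ip1 and Pip5k1b lie under all ex vivo values in the 6 CD40L libraries, Pikfyve and Inpp4a rise there, and Pik3ap1 spreads from 50.3 to 105 CPM within CD40L_WT.

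The regulatory subunits went in different directions. Pik3r1, which encodes p85-alpha and its short forms, stabilizes and restrains the catalytic subunits and was 1.29-fold lower in WT (112, 113 and 111 CPM before, 83.2, 87.3 and 94.98 CPM after; edgeR adjusted p = 0.00561) and 1.28-fold lower in Sh3gl1-/- (adjusted p = 0.00839). Pik3r2 (p85-beta) did not pass in either genotype, with log2 differences of -0.24 ± 0.28 and 0.43 ± 0.29. Of the partners of p110-gamma, Pik3r5 (p101) fell 2.13-fold in WT, from 8.59, 11.8 and 8.20 CPM to 4.06, 4.56 and 5.10 CPM (edgeR adjusted p = 0.000858), and had a log2 difference of -0.46 ± 0.21 in Sh3gl1-/- (adjusted p = 0.0998). Pik3r6 (p84), the other partner, rose from near the floor: 0, 0 and 0.301 CPM in FO_WT and 0.225, 0.253 and 0.429 CPM in FO_KO, against 4.20, 5.96 and 7.37 CPM in CD40L_WT and 4.26, 2.39 and 5.43 CPM in CD40L_KO. These are 0 to 6 counts per library ex vivo and 30 to 120 counts after CD40L (edgeR adjusted p = 1.95e-05 in WT and 0.000366 in Sh3gl1-/-), and no fold is given because it would rest on those few ex vivo counts. Pik3r3 (p55-gamma) passed in WT, with 1.87, 1.97 and 0 CPM before and 2.06, 6.77 and 8.41 CPM after (edgeR adjusted p = 0.0368). Its call did not hold with the replicate number as a block (adjusted p = 0.0552), and in Sh3gl1-/- its adjusted p was 0.517.

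Pik3ip1, a transmembrane protein that binds and inhibits class I PI3K, showed the steepest fall of the members in WT and, after Pip5k1b, the second steepest in Sh3gl1-/-. Its values were 18.9, 17.7 and 18.2 CPM in FO_WT and 19.2, 19.2 and 20.5 CPM in FO_KO. After CD40L they were 4.06, 2.41 and 1.47 CPM in WT and 4.97, 4.14 and 3.99 CPM in Sh3gl1-/-. Every CD40L library was below every ex vivo library, and the fall was 7.07-fold in WT (log2 -2.82 ± 0.27; edgeR adjusted p = 1.72e-06) and 4.56-fold in Sh3gl1-/- (log2 -2.19 ± 0.26, adjusted p = 1.59e-05). An antisense gene overlaps Pik3ip1, whose expected counts were fractional in 1 library. The counting is not stated to use strand, and the part of the antisense gene was not tested. Expressed genes also overlap Pik3ca, Pik3r2 and Pip5k1b, whose counts were whole, and Inpp5e, Pi4kb and Pip4k2c, with fractional counts in 18, 17 and 11 libraries. The adaptor Pik3ap1, in contrast, did not pass in either genotype (adjusted p = 0.334 and 0.946). The CD40L_WT libraries were spread widely for it, at 50.3, 105 and 85.5 CPM.

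The promoters of the 2 members with the lowest adjusted p among those that fell in both genotypes, Pik3cg and Pik3ip1, are shown because both lay in one direction in all libraries. RefSeq promoter windows (GRCm38.p6, 250 bases before to 50 bases after an annotated start) matched 39 of the 43 members by symbol, with 58 windows in all, and none was found for Pik3r6. The windows are written 5′ to 3′ on the strand of the gene. In the window of Pik3cg, chr12:32208421-32208720 on the minus strand, capitals mark the FOXO core motif GTAAACA, 92 bases before the start. A second window of Pik3cg, of another annotated start (chr12:32208610-32208909), held none of the motifs searched and is not shown. In that of Pik3ip1, chr11:3330481-3330780 on the plus strand, capitals mark the KLF-like motif CCACCC, 202 bases before the start.
Pik3cg: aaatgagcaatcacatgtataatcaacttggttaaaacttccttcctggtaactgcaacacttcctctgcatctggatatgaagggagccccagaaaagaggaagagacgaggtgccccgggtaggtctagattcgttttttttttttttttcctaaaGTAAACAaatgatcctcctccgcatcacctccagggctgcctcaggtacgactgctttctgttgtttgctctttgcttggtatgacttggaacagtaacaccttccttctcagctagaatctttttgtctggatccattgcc
Pik3ip1: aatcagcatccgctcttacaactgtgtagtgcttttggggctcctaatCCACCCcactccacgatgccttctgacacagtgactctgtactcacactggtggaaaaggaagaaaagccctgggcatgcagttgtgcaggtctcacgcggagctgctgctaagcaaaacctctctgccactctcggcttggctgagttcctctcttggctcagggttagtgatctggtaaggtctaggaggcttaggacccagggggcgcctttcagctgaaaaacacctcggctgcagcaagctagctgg

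Both strands of each window were searched for these motifs and for the E-box CACGTG and a kappa-B-like motif (GGGA, any 4 bases, CC), chosen because FOXO, KLF and MYC family factors and NF-kappa-B act in resting or CD40-stimulated B cells. GTAAACA was in 1 of the 13 members with a window that fell in both genotypes (Pik3cg), and in 3.65% of all 32851 windows. CCACCC was in 7 of these 13, among them Pik3cd, Pik3r1 and Pdpk1, in 2 of the 3 with a window that rose (Inpp4a and Sacm1l), and in 31.5% of all windows. Counted by gene, as for the members, it was in 39.3% of the genes tested with a window and in 43.1% of all genes that fell in both genotypes. The kappa-B-like motif was in 6 of the 13 (Inpp5a, Inpp5f, Mtm1, Pdpk1, Pik3cd and Pik3r1) and in 20.7% of all windows, and CACGTG was in 1 of the 13 (Mtm1) and in 7.15%. A gene with several windows was counted once if any held the motif, and in this way 29.3% of the genes tested with a window and 33.6% of all genes that fell in both genotypes held the kappa-B-like motif. For GTAAACA these shares were 3.24% and 4.74%, and for CACGTG 11.9% and 11.7%. These matches describe letters in a window and not bound sites.

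Among the class II and III kinases, Pik3c2b, a class II enzyme that limits mTORC1 at the lysosome, fell 3.06-fold in WT (67.9, 84.8 and 58.0 CPM before, 30.3, 25.6 and 14.49 CPM after; edgeR adjusted p = 0.000792) and 2.37-fold in Sh3gl1-/- (adjusted p = 0.00634). Without the Sh3gl1-/- libraries numbered 1, the adjusted p of the latter was 0.0550. Pik3r4 (VPS15), the regulatory subunit of the class III kinase of endosomes and autophagy, fell 1.65-fold in WT (adjusted p = 0.00333) and 1.43-fold in Sh3gl1-/- (adjusted p = 0.0268). Its catalytic partner Pik3c3 (VPS34) had log2 differences of 0.07 ± 0.17 and -0.04 ± 0.17 and did not pass in either (edgeR adjusted p = 0.756 and 0.854). Pik3c2a, a class II kinase of clathrin-mediated endocytosis, fell in Sh3gl1-/- (1.3-fold, edgeR adjusted p = 0.0280) and had an adjusted p of 0.372 in WT. Its expected counts were fractional in all 18 libraries and expressed genes overlap it, but which genes shared its reads was not tested.

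Of the kinases that supply PIP2, Pip5k1b moved most. It had 8.20, 6.59 and 7.98 CPM in FO_WT and 1.58, 2.48 and 2.64 CPM in CD40L_WT, and 8.69, 11.7 and 14.0 CPM in FO_KO and 3.76, 1.99 and 1.68 CPM in CD40L_KO. All 6 CD40L values lay under all 6 ex vivo values, and the fall was 3.45-fold in WT (edgeR adjusted p = 0.000362) and 4.70-fold in Sh3gl1-/- (adjusted p = 7.96e-05). Its relatives Pip5k1a and Pip5k1c, with higher TPM, differed little: Pip5k1a had log2 differences of -0.08 ± 0.11 in WT and -0.31 ± 0.11 in Sh3gl1-/-, where it passed (adjusted p = 0.0329), and Pip5k1c passed in neither. The type II kinases Pip4k2b and Pip4k2c fell 1.82-fold and 1.46-fold in WT (adjusted p = 0.0221 and 0.0207), and Pip4k2a fell 1.5-fold in Sh3gl1-/- (adjusted p = 0.0196). The 4 PI 4-kinases, which make the precursor of PIP2, gave 0 calls in WT by edgeR, with 0 at an unadjusted p under 0.05 and 0 by DESeq2. In Sh3gl1-/- Pi4ka was 1.24-fold higher (edgeR adjusted p = 0.0229). Its expected counts were fractional in 17 libraries and expressed genes overlap it, and again the genes sharing its reads were not tested. Pi4kb, Pi4k2a and Pi4k2b did not pass in Sh3gl1-/- either, at 0.33 ± 0.22, -0.02 ± 0.13 and -0.04 ± 0.32 on the log2 scale.

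Pikfyve, the kinase that makes PI(3,5)P2 on late endosomes, rose in both genotypes. It had 105, 94.0 and 87.2 CPM in FO_WT and 158, 147 and 147 CPM in CD40L_WT, and 68.7, 73.4 and 68.7 CPM in FO_KO and 117, 132 and 102 CPM in CD40L_KO. In each genotype every CD40L library was above every ex vivo library. The rise was 1.55-fold in WT (edgeR adjusted p = 0.000409) and 1.64-fold in Sh3gl1-/- (adjusted p = 0.000222). Its scaffold Vac14 and the phosphatase Fig4, which form a complex with it, did not pass in either genotype, with log2 differences of 0.39 ± 0.17 and 0.36 ± 0.17 for Vac14 and -0.04 ± 0.17 and 0.21 ± 0.17 for Fig4. Vac14 had an adjusted p of 0.0749 in WT by edgeR and of 0.0373 by DESeq2. Pikfyve made up 56.1% ± 2.0 of the summed TPM of the 3 genes in FO_WT and 61.2% ± 0.4 in CD40L_WT.

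**Figure D3:**
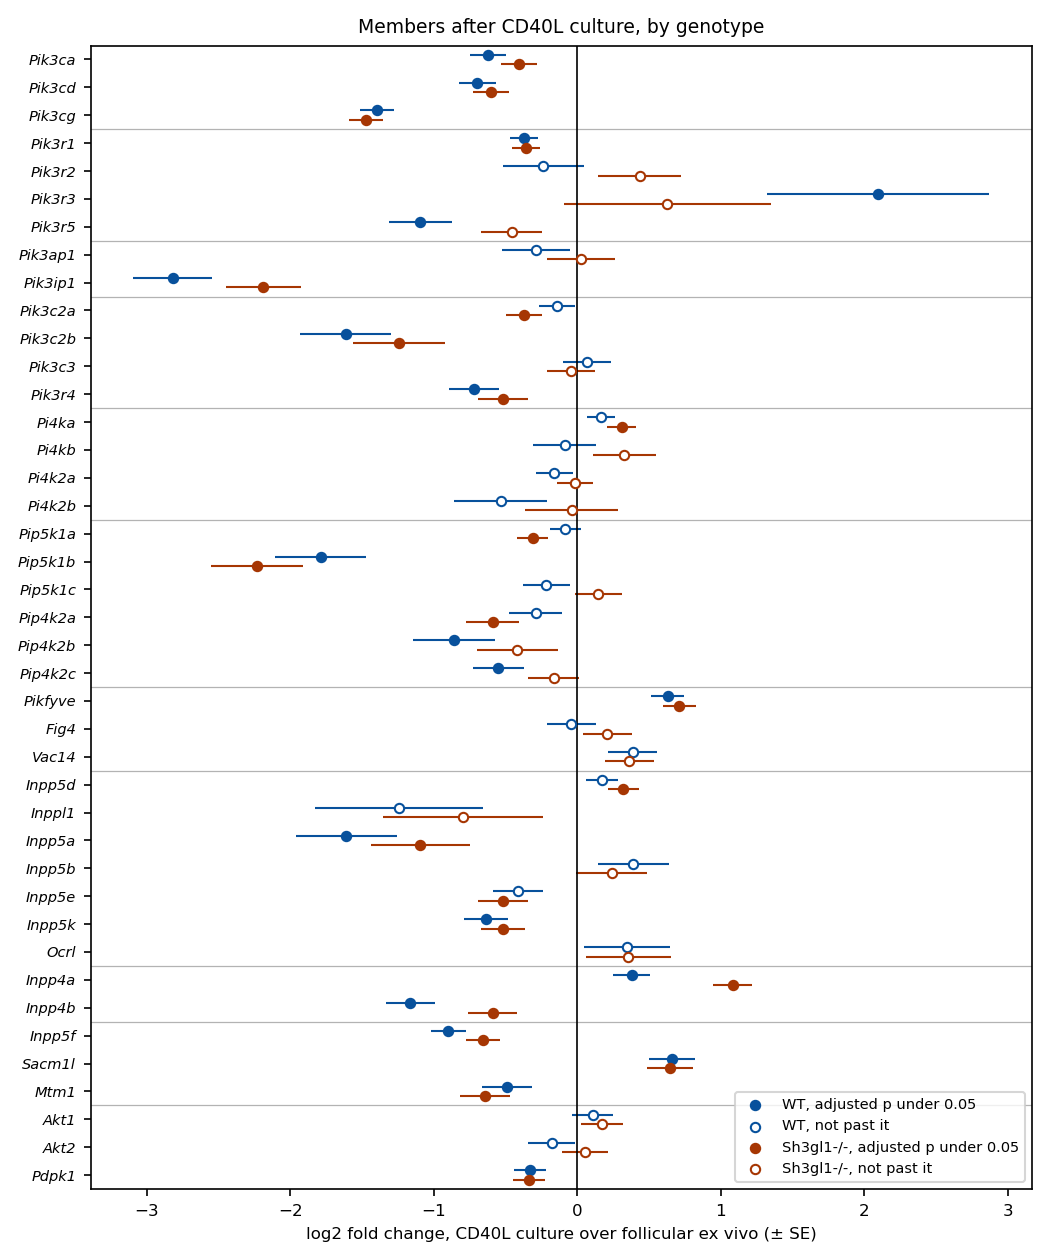
Log2 fold change of CD40L culture over follicular cells ex vivo with its SE for 41 members, in WT (blue) and Sh3gl1-/- (brown), ordered by family; filled points passed an adjusted p under 0.05. Pik3ip1 lies farthest to the left in WT at -2.82, and Pikfyve, Inpp4a and Sacm1l are the filled points on the right in both genotypes. Pik3cb was not tested and Pik3r6 rests on too few ex vivo counts for a fold.

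The phosphatases that end the PIP3 signal did not move as 1 group. Inpp5d (SHIP-1), which turns PIP3 into PI(3,4)P2, had 173, 183 and 158 CPM in FO_WT and 193, 215 and 185 CPM in CD40L_WT, a log2 difference of 0.17 ± 0.11 that did not pass (edgeR adjusted p = 0.210). In Sh3gl1-/- it had 175, 174 and 161.5 CPM before and 200, 202 and 245 CPM after, and it rose 1.25-fold (adjusted p = 0.0296, and 0.0578 without the libraries numbered 1). In TPM the WT difference was -0.10 and the Sh3gl1-/- difference 0.12 on the log2 scale. With Inpp5k falling 1.56-fold in WT (adjusted p = 0.00329) and 1.43-fold in Sh3gl1-/- (adjusted p = 0.0140), SHIP-1 went from 53.7% ± 1.6 to 61.5% ± 7.1 of the 5-phosphatase TPM in WT and from 54.2% ± 3.8 to 63.0% ± 4.7 in Sh3gl1-/-. Inpp5a, which acts on soluble inositol phosphates, fell 3.05-fold in WT and 2.13-fold in Sh3gl1-/- (adjusted p = 0.00171 and 0.0194) from 3.74 to 6.78 CPM ex vivo. Inpp5e, a 5-phosphatase of the primary cilium, fell 1.43-fold in Sh3gl1-/- (adjusted p = 0.0286), and in WT it had an adjusted p of 0.0611, which the replicate block moved to 0.0480. Inppl1, Inpp5b and Ocrl, the gene of Lowe syndrome, passed in neither genotype, with log2 differences of -1.24 ± 0.59, 0.39 ± 0.25 and 0.35 ± 0.30 in WT and -0.80 ± 0.56, 0.24 ± 0.25 and 0.36 ± 0.30 in Sh3gl1-/-.

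The pair of 4-phosphatases, which remove the position 4 phosphate of PI(3,4)P2, exchanged rank. Inpp4a had 49.1, 41.4 and 51.6 CPM in FO_WT and 67.2, 65.0 and 56.4 CPM in CD40L_WT, and 28.0, 29.0 and 33.2 CPM in FO_KO and 61.7, 73.7 and 58.2 CPM in CD40L_KO. It rose 1.3-fold in WT (edgeR adjusted p = 0.0280) and 2.12-fold in Sh3gl1-/- (adjusted p = 2.23e-05). The WT call was lost with each of FO_WT replicates 1 and 2 and CD40L_WT replicates 1 and 2 left out (adjusted p = 0.0502 to 0.0909), and with a block for the number within each genotype (adjusted p = 0.0504). Inpp4b had 43.2, 54.5 and 70.5 CPM in FO_WT and 23.3, 23.2 and 30.0 CPM in CD40L_WT, and fell 2.24-fold in WT (adjusted p = 6.97e-05) and 1.51-fold in Sh3gl1-/- (adjusted p = 0.0123, and 0.109 without the libraries numbered 1). On the TPM scale Inpp4a was 37.4% ± 7.1 of the pair in FO_WT and 65.0% ± 2.8 in CD40L_WT, and 33.4% ± 3.2 and 64.0% ± 2.9 in the Sh3gl1-/- groups. The sum of the pair was 28.5 ± 5.4 TPM in FO_WT and 18.7 ± 2.2 TPM in CD40L_WT, against 19.1 ± 1.5 and 20.6 ± 2.2 TPM in FO_KO and CD40L_KO. Over all genes the median log2 TPM ratio of CD40L to ex vivo was -0.25 in WT and -0.06 in Sh3gl1-/-. The sums are not corrected for it.

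Of the phosphatases of other membranes, Sacm1l (SAC1), which removes PI4P at the endoplasmic reticulum and Golgi, rose 1.58-fold in WT (43.4, 31.9 and 37.4 CPM before, 49.95, 67.5 and 64.6 CPM after; edgeR adjusted p = 0.00423) and 1.57-fold in Sh3gl1-/- (adjusted p = 0.00577). Its expected counts were fractional in 15 libraries and an expressed gene overlaps it, but the source of the shared reads was not tested. Inpp5f (SAC2), a phosphatase of early endosomes, fell 1.87-fold in WT (105, 112 and 108 CPM before, 68.0, 59.4 and 50.7 CPM after; adjusted p = 3.22e-05) and 1.58-fold in Sh3gl1-/- (adjusted p = 0.000609). Mtm1, a myotubularin that strips PI3P from endosomes, fell 1.40-fold and 1.56-fold (adjusted p = 0.0314 and 0.00885). Downstream, Akt1 and Akt2 passed in neither genotype: Akt1 had log2 differences of 0.11 ± 0.14 and 0.17 ± 0.14 and Akt2 -0.18 ± 0.16 and 0.05 ± 0.16 (edgeR adjusted p between 0.361 and 0.821). Pdpk1 (PDK1) fell 1.26-fold in both (adjusted p = 0.0238 and 0.0257).

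**Figure D4:**
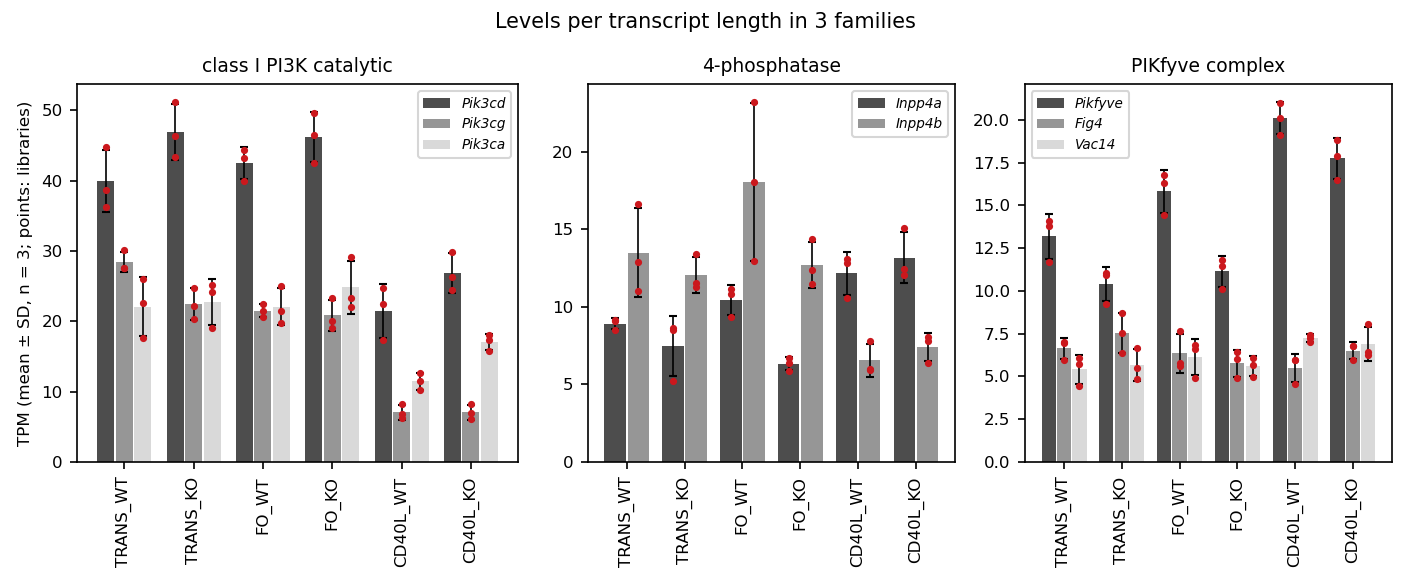
TPM, a level scaled to transcript length, of the class I catalytic subunits, the 4-phosphatases and the PIKfyve complex in the 6 groups (bars: mean, error bars: SD, points: 3 libraries; Pik3cb at a median of 0.00 TPM is not drawn). Pik3cd is the tallest catalytic bar in every group, and Inpp4b stands above Inpp4a ex vivo but below it after CD40L.

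Whether Sh3gl1-/- cells responded to CD40L to another extent was asked with the difference of the 2 responses. By edgeR 0 of 42 members passed, where 0% of all genes did. At an unadjusted p under 0.05 there were 2 members, against 8.84% of all genes, and DESeq2 also called 0 members. The lowest p was that of Inpp4a, whose rise was 0.70 ± 0.19 (log2) larger in Sh3gl1-/- (unadjusted p = 0.00212, adjusted p = 0.465), and the second that of Inpp4b, whose fall was 0.57 ± 0.24 smaller (adjusted p = 0.526). Pik3r5 (0.64 ± 0.30, adjusted p = 0.570), Pik3r6 (adjusted p = 0.576) and Pik3ip1 (0.63 ± 0.37, adjusted p = 0.637) came next. For Pik3cg and Pik3cd the differences were -0.08 ± 0.17 and 0.10 ± 0.18. A p that misses the threshold does not show that the responses were alike.

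Between the transitional and the follicular state, fewer members differed. In WT, 8 of 41 passed, 2 higher and 6 lower in follicular cells, where 25.9% of all genes did, 11.7% higher and 14.2% lower. In Sh3gl1-/- 0 of 41 passed by edgeR and by DESeq2, where 10.4% of all genes did, and 9 had an unadjusted p under 0.05, where 23.9% of all genes did. Among the 8 members called in WT, the steepest change was that of Pi4k2b, a PI 4-kinase of endosomal membranes. It had 2.04, 2.25 and 2.13 CPM in TRANS_WT and 4.71, 6.59 and 5.49 CPM in FO_WT. This was 2.63-fold higher without overlap (edgeR adjusted p = 0.00152). Mtm1 had 54.2, 55.3 and 55.6 CPM in TRANS_WT and 30.9, 34.2 and 34.2 CPM in FO_WT and was 1.65-fold lower (adjusted p = 5.40e-05). The values of both genes spread little within a group.

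Of the class I PI3K genes and their adaptors, Pik3cg and Pik3ap1 passed at this step. Pik3cg went from 120, 133 and 121 CPM to the 90.9 to 97.8 CPM given above and was 1.31-fold lower in FO_WT (edgeR adjusted p = 0.00500). Pik3ap1 went from 125, 134 and 124 CPM to 87.4, 100.4 and 99.3 CPM and was 1.33-fold lower (adjusted p = 0.0212, and 0.178 with all 18 libraries in 1 fit). Pik3cd (log2 -0.08 ± 0.09), Pik3ca (0.11 ± 0.08) and Pik3r1 (0.02 ± 0.08) did not pass. Inpp5b, a 5-phosphatase of early endosomes and cilia, was 1.51-fold lower (adjusted p = 0.00722, and 0.0676 with all 18 libraries in 1 fit), Inpp5k 1.38-fold lower (adjusted p = 0.00986) and Pik3c3 1.39-fold lower (adjusted p = 0.0146). Pikfyve was 1.31-fold higher (77.8, 77.6 and 63.9 CPM in TRANS_WT; adjusted p = 0.0107). With the libraries left out in turn, the calls of Pik3cg, Mtm1, Pi4k2b, Inpp5b and Inpp5k were kept each time, and those of Pik3ap1, Pikfyve and Pik3c3 were not. Summed monocyte and macrophage markers were 462 to 530 TPM in TRANS_WT and 98.3 to 127 TPM in FO_WT, and their part in these differences was not tested.

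The difference of the step between genotypes passed for 0 of 41 members by edgeR, where 0.0686% of all genes passed. At an unadjusted p under 0.05 there were 11 members, against 13.7% of all genes, and DESeq2 called 1 member, Mtm1 (adjusted p = 0.0199). Mtm1 differed by 0.48 ± 0.12 (log2) in the edgeR fit (adjusted p = 0.127): its fall from the transitional to the follicular state was -0.72 ± 0.09 in WT and -0.24 ± 0.08 in Sh3gl1-/-, where TRANS_KO had 51.4, 47.75 and 46.5 CPM and FO_KO 42.3, 39.9 and 41.7 CPM. The next lowest p-values were those of Inpp5b (0.64 ± 0.20, adjusted p = 0.187), Pi4k2b (-1.05 ± 0.35, adjusted p = 0.218), Pik3r2 (-0.99 ± 0.35, adjusted p = 0.230) and Pik3ip1 (-0.45 ± 0.18, adjusted p = 0.286). With a block for the number within each genotype, 99 genes passed in place of 10, and 0 of them were members.

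The comparison of genotypes within a state gave few calls. In transitional cells 3 of 41 members passed, all lower in Sh3gl1-/-, where 3.73% of all genes did and 2.48% were lower, and 16 members did not overlap, where 28% of all genes did not. Pik3r4 had 36.7, 48.9 and 38.6 CPM in TRANS_WT and 26.9, 24.4 and 26.5 CPM in TRANS_KO (log2 -0.68 ± 0.13; edgeR adjusted p = 0.0287). Pik3ap1 had 125, 134 and 124 CPM in WT and 86.3, 99.97 and 100.5 CPM in Sh3gl1-/- (log2 -0.42 ± 0.09, adjusted p = 0.04). Inpp5b had 66.1, 53.1 and 52.8 CPM and 39.5, 40.5 and 41.1 CPM (log2 -0.51 ± 0.12, adjusted p = 0.0451). All 3 calls were lost whichever single Sh3gl1-/- library was left out (edgeR adjusted p = 0.105, 0.167 and 0.149 without that numbered 1). With any single WT library left out, fewer than 3 members passed as well. They were also lost with the replicate block and with all 18 libraries in 1 fit, while DESeq2 called 8 members. Inpp5k (log2 -0.42 ± 0.10, adjusted p = 0.0559) and Pik3ip1 (0.54 ± 0.15, adjusted p = 0.0752) were the next in order. Pik3ip1 had 14.6, 13.9 and 17.4 CPM in TRANS_WT and 24.5, 20.3 and 21.7 CPM in TRANS_KO, without overlap. The summed neutrophil, plasma cell and erythroid markers given above were higher in TRANS_KO, although the medians of Mpo, Elane and Irf4 within these lists were lower. The 6 B cell markers summed to 11716 to 13308 TPM in TRANS_WT and 8430 to 11451 TPM in TRANS_KO, without overlap. The part of these shifts in the calls was not tested.

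In follicular cells 1 of 41 members passed, where 0.845% of all genes did and 0.36% were lower, and 12 did not overlap, where 16% of all genes did not. This was Inpp4a, at 49.1, 41.4 and 51.6 CPM in FO_WT and 28.0, 29.0 and 33.2 CPM in FO_KO, 1.57-fold lower (log2 -0.66 ± 0.12; edgeR adjusted p = 0.0334). Leaving out a single library kept the log2 change between -0.74 and -0.59, and the call was lost each time (adjusted p up to 0.164, reached without FO_KO replicate 1). Pikfyve (log2 -0.44 ± 0.10, adjusted p = 0.0758), Pik3c2b (-0.78 ± 0.18, adjusted p = 0.0837), Inpp5f (-0.34 ± 0.10, adjusted p = 0.164) and Mtm1 (0.32 ± 0.10, adjusted p = 0.231) came next and did not overlap between genotypes either. The neutrophil markers had a median of 150.1 TPM in FO_WT and 542 TPM in FO_KO. The T cell markers were at 159.6 to 199 TPM in FO_WT and 247 to 314 TPM in FO_KO, without overlap, and the median of Cd79a was 3653 and 3177 TPM. The part of these cells was not tested.

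After CD40L 0 of 41 members passed between the genotypes by edgeR and by DESeq2, where 0.0227% of all genes did, and 2 members had an unadjusted p under 0.05, where 7.07% of all genes did. These were Pik3r5 (log2 0.64 ± 0.24, adjusted p = 0.664), at 4.06, 4.56 and 5.10 CPM in WT and 8.17, 6.37 and 6.36 CPM in Sh3gl1-/-, and Pikfyve (-0.34 ± 0.14, adjusted p = 0.687), at 147 to 158 CPM and 102 to 132 CPM. Both were without overlap, as were 4 members in all, where 13.8% of all genes were. Pik3ca (0.30 ± 0.15), Pik3ip1 (0.75 ± 0.39) and Pip4k2c (0.38 ± 0.20) had the next lowest p-values, with adjusted p-values of 0.733 to 0.744. The 4-phosphatase Inpp4a, the call of the ex vivo comparison, was at 56.4 to 67.2 CPM in CD40L_WT and 58.2 to 73.7 CPM in CD40L_KO. The 3 comparisons within a state share no libraries but may share mice, and no member was called in more than 1 of them.

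**Figure D5:**
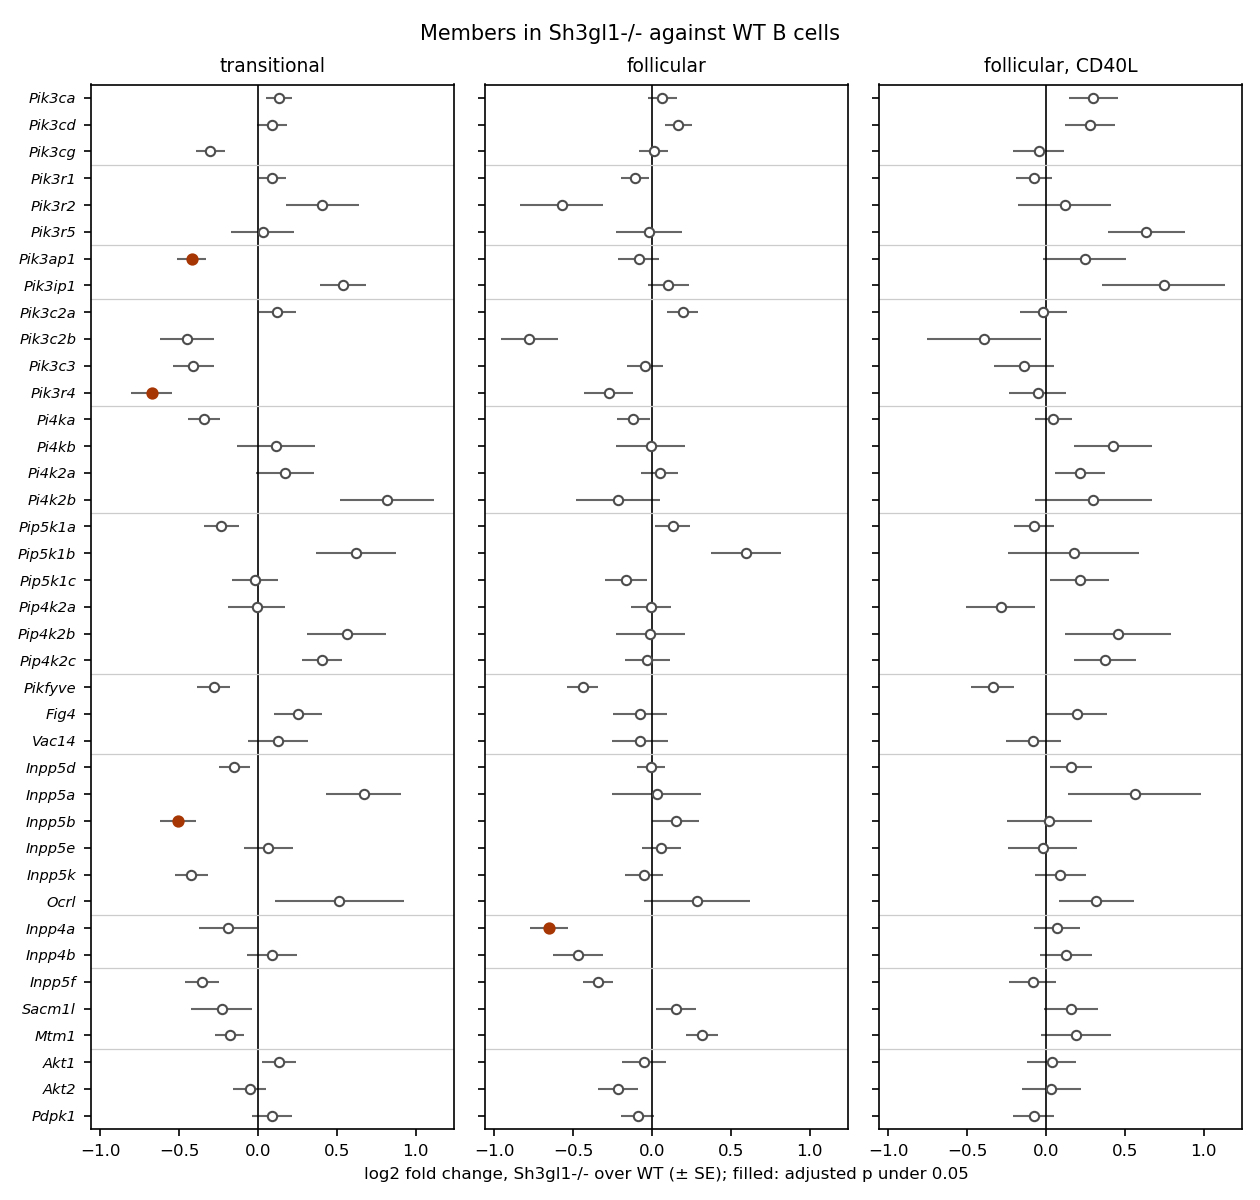
Log2 fold change of Sh3gl1-/- over WT with its SE for 39 members in transitional cells, follicular cells and follicular cells after CD40L, ordered by family; Pik3cb, Pik3r3, Pik3r6 and Inppl1, with few counts, are not drawn. The filled points, at an adjusted p under 0.05, are Pik3ap1, Pik3r4 and Inpp5b in transitional cells and Inpp4a in follicular cells, and there is none after CD40L.

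The wider pathway was covered by a list of 50 other phosphoinositide enzymes and a list of 35 PIP3 effectors and members of the mTOR and FOXO branch. After CD40L, 23 of 41 tested enzymes passed in WT (6 higher, 17 lower) and 18 of 41 in Sh3gl1-/- (5 higher, 13 lower), with median log2 differences of -0.29 and -0.17, where those of all genes were -0.08 and -0.03. These shares, 56.1% and 43.9%, were near the 49.3% and 42.4% of all genes called. The lowest adjusted p-values were those of Pitpnc1, a phosphatidylinositol transfer protein (log2 -1.60 ± 0.12 in WT and -1.43 ± 0.12 in Sh3gl1-/-), Dgka, a diacylglycerol kinase (-1.92 ± 0.18 and -1.66 ± 0.18), with the myotubularin relative Sbf2 (3.14 ± 0.30) in WT and the inositol phosphatase Inpp1 (-1.55 ± 0.15) in Sh3gl1-/-. Of the effectors, 17 of 34 passed in WT (3 higher, 14 lower) and 19 of 34 in Sh3gl1-/- (5 higher, 14 lower), with medians of -0.41 and -0.28. Sgk1, a kinase activated through PDK1 and mTORC2, fell by 3.76 ± 0.27 in WT and by 3.32 ± 0.27 in Sh3gl1-/- on the log2 scale. Foxo1, the transcription factor held in check by AKT, fell by 1.70 ± 0.19 and by 1.67 ± 0.19, and Rictor, the defining subunit of mTORC2, by 1.22 ± 0.13 and by 0.89 ± 0.13. Phlpp1, a phosphatase that inactivates AKT, rose by 2.0 ± 0.21 and by 1.98 ± 0.21. The difference of the responses passed for 0 genes of either list by edgeR and by DESeq2. There 1 enzyme and 2 effectors had an unadjusted p under 0.05, as did 8.84% of all genes.

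The difference of the step from transitional to follicular cells between genotypes passed for 0 genes of either list by edgeR, and DESeq2 called 1 and 2. There 6 enzymes and 5 effectors had an unadjusted p under 0.05, as did 13.7% of all genes. Between transitional and follicular cells 25.9% of all genes passed in WT and 10.4% in Sh3gl1-/-. In WT, 10 of 42 of the other enzymes passed (23.8%; 7 higher, 3 lower), led by Itpkb, an inositol trisphosphate kinase that limits PIP3 signalling (log2 0.82 ± 0.10), Pitpna (0.54 ± 0.11) and the myotubularin Mtmr6 (-0.55 ± 0.11). Of the effectors 11 of 34 passed (32.4%; 6 higher, 5 lower), led by the PI(3,4)P2-binding adaptor Plekha2 (-1.02 ± 0.12), Vav1 (-0.69 ± 0.09) and Foxo4 (1.57 ± 0.24). In Sh3gl1-/- cells 2 of 42 other enzymes passed (4.76%), 1 of them higher (Itpkb, 0.44 ± 0.10) and 1 lower, and 4 of 34 effectors (11.8%), all lower, namely Trib2 (-0.40 ± 0.11), Vav2 (-0.58 ± 0.09), Vav1 (-0.44 ± 0.09) and Plekha2 (-0.49 ± 0.12). Between genotypes 0 of 41 other enzymes passed in any of the 3 states by edgeR, with 8, 4 and 1 at an unadjusted p under 0.05, while DESeq2 called 4, 1 and 0. Over all genes, 2996 of 13774, 1481 of 13610 and 932 of 13188 had such a p. Of the effectors, 2 of 33 passed in transitional cells, where 3.73% of all genes did. These were Tec, a PIP3-binding kinase (0.49 ± 0.10, edgeR adjusted p = 0.0333), and Plekha2 (-0.60 ± 0.13, adjusted p = 0.0365). In follicular cells 1 of 34 passed, Vav3 (1.03 ± 0.15, edgeR adjusted p = 0.0104), where 0.845% of all genes did. After CD40L 0 of 33 effectors passed between genotypes by edgeR and by DESeq2. There 6 effectors had an unadjusted p under 0.05, as did 7.07% of all genes.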

How the data were processed

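Per the labels, polyA RNA of sorted splenic B cells was made into stranded libraries with a KAPA kit, while the study's methods name another kit, and Tophat with Cufflinks. The authors' processing notes list cutadapt 1.9.1, STAR 2.5.2a, RSEM 1.3.0 and GRCm38, and the table has the column names of RSEM. The deposited expected counts are RSEM's estimated reads per gene with no scaling, of which 28.5 to 31.0% of the values above 0 were not whole, since RSEM splits reads between genes. They were rounded here. The authors deposited TPM values, which RSEM scales to effective length and library, and these were used unchanged to compare genes. The FPKM values that the authors deposited were read and entered no result. Whether counting used strand is not given in the sources used here. All 54 value columns matched a library by title, and 51719 of the 51912 gene IDs are in GENCODE M21.

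Counts were tested with edgeR 4.0.16 in R 4.3.3 (TMM, filterByExpr, quasi-likelihood test, Benjamini-Hochberg over all genes tested, adjusted p under 0.05). Each genotype comparison was fitted on its 6 libraries, and the CD40L and maturation comparisons, with their differences between genotypes, on 12. SE was the log2 fold change divided by the square root of F. CPM used TMM factors of all 18 libraries, and the floor covers counting error only. Replicates within a group were libraries of separate mice, and the main fits held no term for a mouse shared between states. Every pair within a group differed by more than counting noise (chi-square per degree of freedom 9.25 to 47.8). The scripts were tested on simulated counts with 200 changed genes. Alternatives were DESeq2 1.42.0, RLE factors, no filter, 18 libraries in 1 fit, each library left out, and the replicate number as a block. The Sh3gl1-/- libraries numbered 1, left out together, and a block within each genotype were chosen after seeing the data. Deviations of same-numbered libraries, over 11246 genes, correlated at 0.25 to 0.39 between FO_WT and CD40L_WT, 0.19 to 0.43 between TRANS_WT and FO_WT, and 0.21 to 0.42 between TRANS_KO and FO_KO, all over 0.1, and not so between genotypes or between FO_KO and CD40L_KO.

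The 43 genes and the other lists were chosen with earlier results of these data known. Members past the threshold were named, with the 5 lowest p-values in genotype comparisons and differences, the class I PI3K genes, Pik3ap1, Pik3ip1, Inpp5d, Akt1, Akt2 and Pdpk1 throughout, and the 3 lowest adjusted p-values of each other list. Pik3c3, Vac14, Fig4, Pip5k1c and, where not called, the relatives named beside them were added after their values were seen. Some genes are not reported here.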

Additional observations from a re-analysis of the deposited data

How the results depend on the processing

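Over all members tested, 5128 values were recomputed under alternatives, of which 125 lost and 44 gained the call, and 0 called values changed direction. RLE factors lost 0 calls and gained 1, that of Vac14 in the CD40L response of WT, which DESeq2 also called (adjusted p = 0.0373). In transitional cells, 514 genes and 3 members passed between genotypes, against 1293 and 8 by DESeq2, 1426 and 7 without the filter on low counts, 90 and 0 with the replicate block, 144 and 0 with all 18 libraries in 1 fit, 56 and 0 without the Sh3gl1-/- libraries numbered 1, and 28 to 479 and 0 to 2 with single libraries left out. In follicular cells, 115 genes and 1 member became 352 and 4 by DESeq2, 602 and 4 without the filter, 212 and 2 with the block, which added Pik3c2b (edgeR adjusted p = 0.00634), 49 and 0 in 1 fit, 32 and 0 without the libraries numbered 1, and 32 to 112 and 0 to 1 with single libraries left out. After CD40L, 3 genes became 78 by DESeq2, 216 without the filter, 21 with the block, 82 in 1 fit, 1 without the libraries numbered 1 and 1 to 9 with single libraries left out. The numbers did not pair the libraries of the 2 genotypes.

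For the CD40L response of Sh3gl1-/- cells, 6131 genes and 24 members became 4059 and 10 without the libraries numbered 1, and 5080 to 5974 and 16 to 21 with single libraries left out. Its difference from WT, with 0 genes, gave 30 by DESeq2, 210 without the filter and 0 to 1 with single libraries left out, 1 without CD40L_WT replicate 2. From the transitional to the follicular state, 3772 genes and 8 members in WT became 2444 to 3324 and 5 to 11, the lowest counts without FO_WT replicate 1, and 1518 genes in Sh3gl1-/- became 730 without the libraries numbered 1 and 986 to 1351 with single libraries left out. The difference of this step, with 10 genes and 0 members, gave 335 and 1 by DESeq2, 462 and 2 without the filter, 20 genes with the block, 99 with the block within each genotype, 0 in 1 fit, 0 without the libraries numbered 1 and 0 to 23 with single libraries left out. The cause was not tested for any of these, except that fewer libraries were fitted in some. In the CD40L response the block moved the calls of Pik3r3 and Inpp5e in WT and no other call of a member.

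With 3 mice a group, small changes of genes at a few counts could not be seen: the floor of 3 counts was up to 0.242 CPM, near the level of Pik3r6 in follicular cells ex vivo and above that of Pik3cb in most libraries. All values are RNA and not protein or lipid.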
